A study of Homo sapiens with 12 samples.

Results

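The perilipins and lipid droplet turnover genes described here are PLIN2, PLIN3, PLIN4, PLIN5, DGAT1, DGAT2, PNPLA2, LIPE, ABHD5 and G0S2. The rule names them by symbol and sets no limit on a measured value, but the list was drawn up with earlier results of these data known. All 10 were found among the 60660 genes of the deposited tables. The libraries came from LNCaP cells, a prostate cancer (PCa) line that responds to androgen, and from 22Rv1 cells, a PCa line derived from a xenograft that grew back after castration. Each line was given NC-mimic or piR-4447944 mimic (piR-hsa-4447944 in the labels), a chemically modified synthetic RNA that carries the sequence of this piRNA. All 4 groups, the controls included, were kept in androgen-deprived medium with 10% CS-FBS (charcoal-stripped fetal bovine serum), and each group had 3 libraries. The labels do not say whether the 3 libraries of a group came from separate cultures, so the p-values measure the spread between these libraries, which may be technical. The dose of the mimic and the time before RNA extraction are not given for these libraries in the sources used here.

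Lipid droplets are the stores of neutral lipid of a cell, with a core of triacylglycerol and sterol ester under a single layer of phospholipid. Perilipins coat this layer and limit the access of lipases. PLIN2 and PLIN3 are made in most cell types, whereas PLIN4 and PLIN5 are best known from fat, muscle and other oxidative tissues. DGAT1 and DGAT2 catalyse the final step of triacylglycerol synthesis. PNPLA2 (adipose triglyceride lipase) starts the breakdown of triacylglycerol, ABHD5 activates PNPLA2, G0S2 inhibits it, and LIPE (hormone-sensitive lipase) acts on the diacylglycerol that PNPLA2 leaves and on sterol esters. Androgen is known to raise lipid synthesis in prostate cells, and lipid droplets are a common feature of PCa cells.

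The promoters of the 4 perilipins are shown because the makeup of these transcripts differed between the lines, and because PLIN2 and PLIN3 were the members called with the mimic. Each sequence is a RefSeq promoter window of GRCh38.p14, from 250 bases before to 50 bases after the start of a transcript, read 5′ to 3′ on the minus strand, on which all 4 genes lie. The windows are chr9:19127443-19127742 for PLIN2, chr19:4867618-4867917 for PLIN3, chr19:4518437-4518736 for PLIN4 and chr19:4535175-4535474 for PLIN5. Capitals mark 4 sets of letters, searched on both strands. The letters TATAA are the core of a box near which transcription starts. The letters ACGTG are the core of sites bound by hypoxia-inducible factors and part of an E-box. The letters AGGTCA are a site to which 1 nuclear receptor binds, as the PPARs and RXRA do in pairs. The letters CCAAT are those that NF-Y binds.
PLIN2: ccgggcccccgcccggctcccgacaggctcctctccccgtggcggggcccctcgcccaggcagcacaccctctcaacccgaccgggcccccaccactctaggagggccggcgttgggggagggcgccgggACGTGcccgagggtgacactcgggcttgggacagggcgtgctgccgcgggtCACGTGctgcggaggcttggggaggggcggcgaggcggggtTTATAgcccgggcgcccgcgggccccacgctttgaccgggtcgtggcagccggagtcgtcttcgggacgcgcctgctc
PLIN3: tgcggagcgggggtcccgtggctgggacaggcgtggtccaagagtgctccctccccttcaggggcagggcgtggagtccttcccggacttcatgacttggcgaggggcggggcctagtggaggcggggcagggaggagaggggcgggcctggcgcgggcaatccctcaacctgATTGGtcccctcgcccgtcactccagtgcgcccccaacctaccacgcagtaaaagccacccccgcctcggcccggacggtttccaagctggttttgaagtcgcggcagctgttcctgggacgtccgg
PLIN4: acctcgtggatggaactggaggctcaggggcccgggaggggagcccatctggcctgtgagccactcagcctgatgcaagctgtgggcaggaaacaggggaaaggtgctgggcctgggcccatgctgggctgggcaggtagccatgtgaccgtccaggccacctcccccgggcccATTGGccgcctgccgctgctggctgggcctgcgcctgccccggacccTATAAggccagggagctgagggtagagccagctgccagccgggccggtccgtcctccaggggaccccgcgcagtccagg
PLIN5: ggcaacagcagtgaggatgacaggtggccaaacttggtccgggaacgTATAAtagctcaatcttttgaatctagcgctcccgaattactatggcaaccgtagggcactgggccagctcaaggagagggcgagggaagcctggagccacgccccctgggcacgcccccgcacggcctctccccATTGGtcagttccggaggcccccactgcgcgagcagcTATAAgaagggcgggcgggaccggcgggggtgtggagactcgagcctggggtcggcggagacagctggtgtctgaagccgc

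TATAA letters began 28 bases before the start in PLIN2 (on the opposite strand), 29 in PLIN4 and 31 in PLIN5, and PLIN5 held them again at 203. PLIN3 had none in its window. Of the 35116 windows of this length in the RefSeq table, 20.4% held TATAA on either strand, and 4.19% held it between 35 and 25 bases before the start. ACGTG was found in PLIN2 alone among the 4, at 120 bases before the start and in an overlapping pair on both strands at 69 and 68, and 21.4% of all windows held it. CCAAT letters lay at 77, 76 and 68 bases in PLIN3, PLIN4 and PLIN5, against 34.6% of all windows. AGGTCA was in none of the 4 and in 13.8% of all windows. Windows of 8 of the 10 members were searched, and none of DGAT1 or DGAT2.

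The library totals lay between 12161091 and 22179601 expected counts. Levels are given as CPM, counts scaled to a common library size after edgeR's TMM scaling, for a comparison of a gene between libraries, and as the deposited TPM, which is scaled by length, for a comparison between genes. The luminal markers KLK3, KLK2, KRT8, KRT18, TMPRSS2, FOXA1 and HOXB13 were above a TPM of 1 in every library, and none of the 5 adipocyte markers reached it, with ADIPOQ at 0 counts in all 12. The 22Rv1 libraries were more spread than those of LNCaP, with a common biological coefficient of variation of 0.343 against 0.0964. 22Rv1 piR-4447944 mimic replicate 3 stood apart: its summed TPM over 12 genes that are raised in low oxygen was 4025, against 275 to 570 in the other 22Rv1 libraries. Results in 22Rv1 are therefore also given without both replicate 3 libraries where that changes a call or a direction.

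In 22Rv1 the perilipin transcripts were mixed, whereas in LNCaP they were almost PLIN3 alone. By TPM, PLIN3 made up 95.8% ± 0.595 (SD, n = 3) of the sum of PLIN1 to PLIN5 in LNCaP with NC-mimic and 96.1% ± 0.937 in LNCaP with the mimic. In 22Rv1 the share was 56.3% ± 6.41 and 54.8% ± 8.86, and no 22Rv1 library reached the lowest LNCaP library, at 95.02%. PLIN5 held 23.2% ± 6.18 and 24.0% ± 15.9 of the perilipin TPM of 22Rv1, PLIN2 held 14.5% ± 2.24 and 12.6% ± 4.90, and PLIN4 held 5.94% ± 2.09 and 8.46% ± 2.65. The share of PLIN5 with the mimic rested on replicate 1, at 40.3%, and was 15.9% without it. The effective length of PLIN5 was 1016 bases in that library and 2072 in replicate 2, where the CPM were alike at 14.1 and 13.5. In LNCaP with NC-mimic the same shares were 0.0916%, 2.24% and 0.801%. The sum itself differed less than its makeup, at 50.7 ± 3.73 TPM in LNCaP and 40.8 ± 3.57 TPM in 22Rv1 with NC-mimic. With the mimic it was 47.6 ± 3.54 and 34.7 ± 10.5 TPM.

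**Figure D1:**
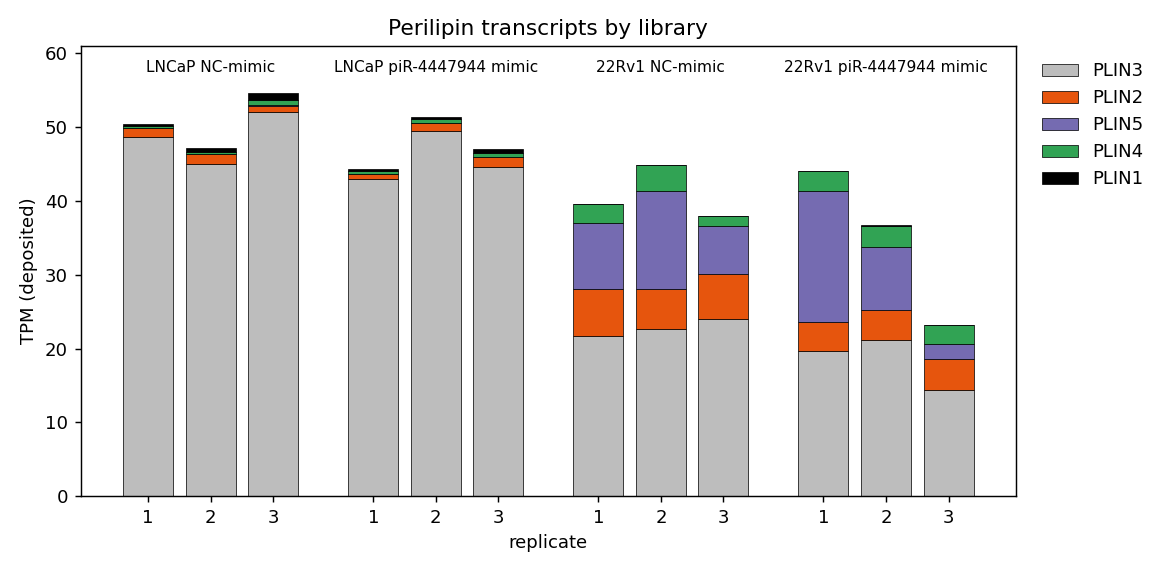
Stacked bars give the deposited TPM of PLIN1 to PLIN5 in each of the 12 libraries (x axis, replicate number within each group). PLIN3 fills nearly the whole bar in LNCaP, and PLIN2, PLIN5 and PLIN4 add a visible part in every 22Rv1 library, smallest for PLIN5 in piR-4447944 mimic replicate 3 at 1.99 TPM.

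PLIN3 (ENSG00000105355.9, hg38 chromosome 19, 4838341 to 4867694) codes for a perilipin that moves from the cytosol to new droplets. In LNCaP it was at 69.3, 64.1 and 74.5 CPM with NC-mimic and at 62.0, 71.3 and 65.7 CPM with piR-4447944 mimic. The 22Rv1 libraries held 32.5, 34.6 and 36.9 CPM with NC-mimic and 27.0, 28.8 and 20.3 CPM with the mimic. Every 22Rv1 library was below every LNCaP library. PLIN3 had the highest TPM of the perilipins in all 12 libraries.

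PLIN2 (ENSG00000147872.10, chromosome 9, 19108375 to 19149290) codes for adipophilin, which is stabilised by lipid and follows the droplet content of many cells. It was at 1.503, 1.64 and 0.792 CPM in LNCaP with NC-mimic and at 0.946, 1.29 and 1.16 CPM with piR-4447944 mimic, from 74 and 55 counts in all. In 22Rv1 it was at 7.11, 6.92 and 6.93 CPM with NC-mimic and at 3.44, 4.07 and 3.11 CPM with the mimic, from 348 and 171 counts. All 22Rv1 libraries lay above all LNCaP libraries, and in 22Rv1 the libraries with the mimic lay below those with NC-mimic.

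PLIN4 (ENSG00000167676.4) and PLIN5 (ENSG00000214456.8) are neighbours on chromosome 19, at 4502192 to 4518486 and 4522531 to 4535224. PLIN4, which coats small new droplets in fat cells, was at 1.56, 1.28 and 3.04 CPM in LNCaP with NC-mimic and at 1.82, 2.40 and 2.73 CPM with piR-4447944 mimic. In 22Rv1 PLIN4 was at 12.3, 17.0 and 6.85 CPM with NC-mimic and at 12.9, 13.4 and 12.2 CPM with the mimic, again above every LNCaP library. PLIN5, which ties droplets to mitochondria, had 4 counts in LNCaP NC-mimic replicate 3 and 0 in the other 5 LNCaP libraries. In 22Rv1 PLIN5 was at 13.9, 13.4 and 5.87 CPM with NC-mimic and at 14.1, 13.5 and 2.98 CPM with the mimic. The lowest values of both 22Rv1 groups were those of replicate 3. The gene AC011498.4 lies on the same strand and shares 1047 exon bases with PLIN5, so that RSEM had to divide reads between them. It had 0 counts in LNCaP and between 14 and 56.0 in 22Rv1, and the sum of both genes was between 3.89 and 17.9 CPM in 22Rv1.

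DGAT1 (ENSG00000185000.12) was at 42.0, 41.4 and 55.0 CPM in LNCaP with NC-mimic and at 47.3, 46.3 and 49.7 CPM with piR-4447944 mimic. It was at 39.1, 43.8 and 43.0 CPM in 22Rv1 with NC-mimic and at 33.8, 44.4 and 42.0 CPM with the mimic, so the lines overlapped in the NC-mimic libraries. DGAT2 (ENSG00000062282.15, chromosome 11, 75759512 to 75801535) was at 34.9, 32.7 and 42.2 CPM in LNCaP with NC-mimic and at 37.3, 34.9 and 38.3 CPM with the mimic. In 22Rv1 DGAT2 was at 15.8, 17.1 and 15.6 CPM with NC-mimic and at 13.1, 14.0 and 13.3 CPM with the mimic, and there the groups did not overlap. DGAT1 made up 61.05% ± 0.499 of the summed DGAT TPM in LNCaP with NC-mimic and 71.8% ± 10.3 in 22Rv1, and 61.4% ± 5.77 and 80.3% ± 1.31 with piR-4447944 mimic. The 59.9% of 22Rv1 NC-mimic replicate 1 goes with a short effective length, the mean transcript length over which RSEM spreads the reads: for DGAT2 it was 1047 bases there and up to 2192 in that group, and the CPM of this library was like the others.

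PNPLA2 (ENSG00000177666.17, chromosome 11, 818914 to 825573) had the highest TPM of the 10 members in all 4 groups, 54.3 ± 2.24 and 56.3 ± 5.90 in LNCaP and 59.7 ± 8.35 and 55.3 ± 2.83 in 22Rv1 (NC-mimic and piR-4447944 mimic). The 12 libraries lay between 80.5 and 96.6 CPM. In LNCaP with NC-mimic the PLIN3 libraries overlapped those of PNPLA2, and in the other 3 groups the next gene in the order of TPM did not. ABHD5 (ENSG00000011198.10, chromosome 3, 43690108 to 43734371) was at 47.0, 48.1 and 40.1 CPM in LNCaP with NC-mimic and at 48.3, 43.2 and 45.2 CPM with piR-4447944 mimic. In 22Rv1 it was at 35.8, 33.2 and 30.1 CPM and at 41.2, 34.3 and 28.4 CPM. The ratio of PNPLA2 to ABHD5 TPM was 1.87 ± 0.232 and 1.98 ± 0.197 in LNCaP, and 3.52 ± 0.373 and 2.84 ± 0.345 in 22Rv1, with the lowest 22Rv1 library at 2.55 and the highest LNCaP library at 2.14.

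G0S2 (ENSG00000123689.6, chromosome 1, 209675412 to 209676390), the inhibitor of PNPLA2, had 1 count in the 6 LNCaP libraries together. It was at 0.866, 0.646 and 1.55 CPM in 22Rv1 with NC-mimic and at 0.138, 1.00 and 1.295 CPM with piR-4447944 mimic, from 48 and 40 counts. LIPE (ENSG00000079435.10, chromosome 19, 42401514 to 42427388) was at 0.156, 0.205 and 0.548 CPM in LNCaP with NC-mimic and at 0.743, 0.615 and 0.580 CPM with the mimic, from 16 and 31 counts. In 22Rv1 LIPE was at 8.34, 3.62 and 5.38 CPM and at 6.74, 4.29 and 3.17 CPM. The lowest 22Rv1 library of LIPE was thus above the highest LNCaP library. LIPE-AS1, on the opposite strand, shares 500 exon bases with LIPE and had between 11 and 39.5 counts. Since the strand setting of the counting is not given in the sources used here, reads from the bases that LIPE and LIPE-AS1 share cannot be assigned with certainty. The same holds for 170 exon bases of ABHD5 shared with ANO10, 137 of DGAT1 with HSF1 and 401 of PNPLA2 with AP006621.1. With NC-mimic ANO10 had 546 to 704 counts in LNCaP and 154 to 222 in 22Rv1. HSF1 had 1653 to 1857 and 673 to 1130 there, and AP006621.1 had at most 35 in any library.

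**Figure D2:**
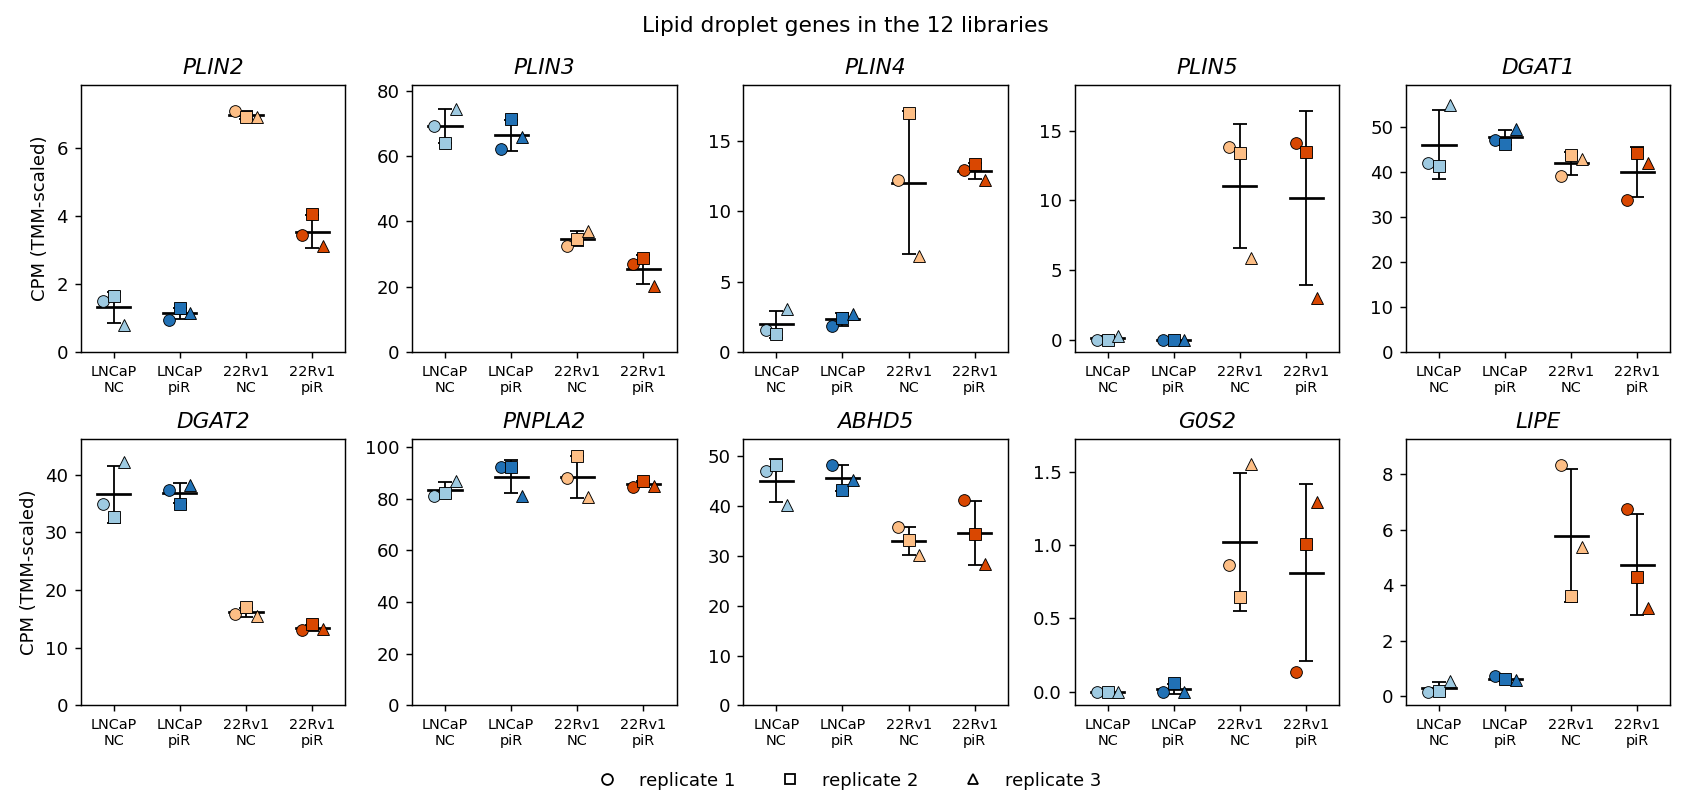
CPM (y axis, from 0) of the 10 members in the 12 libraries, with bars for the mean and whiskers for 1 SD (n = 3) and symbols for the replicate number; NC is NC-mimic and piR is piR-4447944 mimic. PLIN2, PLIN4, PLIN5, LIPE and G0S2 are higher in 22Rv1, PLIN3 and DGAT2 are lower, and PNPLA2 stays between 80.5 and 96.6 CPM. ABHD5 is lower on average, but 22Rv1 piR replicate 1 (41.2 CPM) lies above LNCaP NC replicate 3 (40.1 CPM).

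To compare the lines, 22Rv1 was tested against LNCaP within the NC-mimic libraries and again within the piR-4447944 mimic libraries. With NC-mimic, 8 of 10 members had an adjusted p under 0.05 (quasi-likelihood test of edgeR, adjusted over all genes by Benjamini-Hochberg), 5 higher and 3 lower in 22Rv1, where 58.4% of all 17497 genes tested were called. With the mimic 6 of the 9 members tested were called, against 52.4% of 17283 genes. Most genes thus differed between the lines, and the count of members is to be read against that. The log2 fold changes of the members had a median absolute value of 1.79 with NC-mimic, against 0.707 over all genes tested. Those of PLIN5 and G0S2 rest on LNCaP groups of 4 and 0 counts. Values of a cell line cannot be told apart from those of the batch in which it was grown and sequenced, since the labels give none.

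PLIN2 was 5.24-fold higher in 22Rv1 with NC-mimic (log2 fold change 2.39, standard error 0.34, edgeR adjusted p = 0.000562) and 3.12-fold higher with the mimic (1.64, standard error 0.33, adjusted p = 0.00549). PLIN4 was 6.14-fold and 5.55-fold higher (adjusted p = 0.00142 and 0.000254 in edgeR). PLIN3 was 2.01-fold lower with NC-mimic (log2 fold change -1.01, standard error 0.11) and 2.60-fold lower with the mimic (-1.38, standard error 0.15), and DGAT2 was 2.28-fold and 2.72-fold lower. ABHD5 was called with NC-mimic alone, at -0.46 (edgeR adjusted p = 0.0131), while with the mimic its log2 fold change of -0.39 had an adjusted p of 0.0700 in edgeR. ABHD5 lost its call without LNCaP NC-mimic replicate 1 (-0.44) and, within the mimic libraries, gained it without 22Rv1 replicate 1 (-0.53) or replicate 3 (-0.27). DGAT1 (-0.15 and -0.25) and PNPLA2 (0.08 and -0.04) were not called in either, although DGAT1 was called at -0.28 within the mimic libraries without 22Rv1 replicate 3. The 95% interval of PNPLA2 ran from -0.15 to 0.31 with NC-mimic and from -0.26 to 0.17 with the mimic.

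The folds of the 3 members that LNCaP scarcely held were taken from the pooled counts, with exact 95% intervals that cover counting error only. PLIN5 had 4 counts in LNCaP and 583 in 22Rv1 with NC-mimic, a ratio of 162 (62.9 to 596) after scaling. With piR-4447944 mimic it had 0 and 493 counts and was at least 166-fold higher, taking 3 counts over the LNCaP group as the floor. G0S2 was at least 17.8-fold higher with NC-mimic, from 0 and 48 counts, and with the mimic had a ratio of 40.3 (6.83 to 1631) from 1 and 40 counts. LIPE had a ratio of 21.2 (12.8 to 37.5) with NC-mimic and of 7.28 (4.99 to 10.97) with the mimic.

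**Figure D3:**
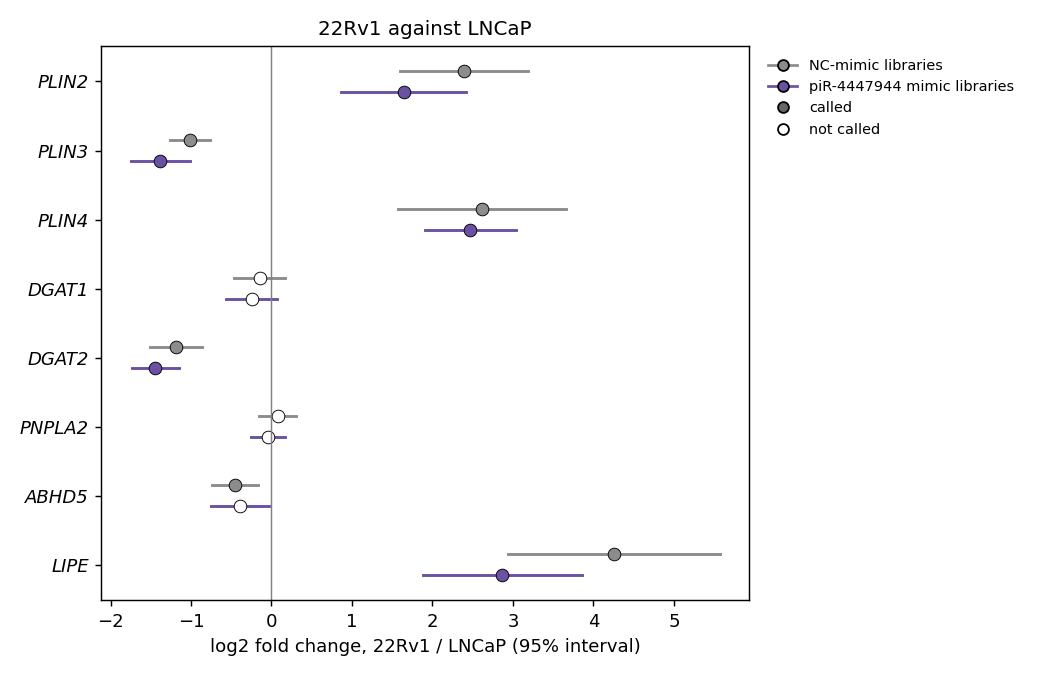
Log2 fold changes of 22Rv1 against LNCaP (x axis) with 95% intervals from edgeR, for the NC-mimic and the piR-4447944 mimic libraries, without PLIN5 and G0S2, which had 4 counts or fewer in an LNCaP group. PLIN2, PLIN4 and LIPE lie to the right of 0, PLIN3 and DGAT2 to the left, and the intervals of DGAT1 and PNPLA2 span 0.

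The effect of piR-4447944 was tested in each line. A gene was called when its unadjusted p was under 0.05 and its log2 fold change was beyond 0.2 in either direction. Both limits are those of the study, which set them on DESeq2 fold changes shrunken towards 0, whereas here they were set on edgeR fold changes without shrinkage. With DESeq2 and shrinkage 2 genes were called in LNCaP in place of 361, and 233 in 22Rv1 in place of 250. In LNCaP no member met this rule: of the 7 members tested 0 were called, where 2.22% of 16244 genes were called, and PLIN5, LIPE and G0S2 were below the low-count filter. All 7 had an unadjusted p over 0.05 in edgeR, and the CPM of the groups overlapped for each of the 7, where 7.86% of genes did not overlap. Their log2 fold changes ran from -0.22 for PLIN2 to 0.26 for PLIN4. PLIN3 was at -0.06 (95% interval -0.24 to 0.12) and PNPLA2 at 0.08 (-0.08 to 0.25), whereas the interval of PLIN2 was wider, from -1.07 to 0.63. After adjustment 0 of all genes (0%) were called in LNCaP by edgeR and 433 had an unadjusted p under 0.05.

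In 22Rv1, 2 of the 10 members were called, PLIN2 and PLIN3, both lower with piR-4447944 mimic. By this rule 1.48% of 16898 genes were called, and 0.681% were called as lower. PLIN2 was 1.98-fold lower (log2 fold change -0.98, standard error 0.28, 95% interval -1.64 to -0.32, unadjusted p = 0.00943 in edgeR), and in absolute size its change was above that of 95.4% of genes. PLIN3 was 1.37-fold lower (-0.45, standard error 0.19, interval -0.89 to -0.02, unadjusted p = 0.0422 in edgeR). Neither held after adjustment over all genes, where both had an edgeR adjusted p of 0.999 and 0 genes (0%) were called, against 250 at an unadjusted p under 0.05. PLIN2 is a gene that the study followed up from these same libraries, so its call is no independent evidence of its direction. The study chose its follow-up genes from those lower with the mimic in both lines. In its RT-qPCR, NEFH was the only candidate that was lower in both. Here PLIN2 did not meet the rule in LNCaP, at -0.22 (unadjusted p = 0.586 in edgeR).

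Within libraries of the same replicate number, PLIN2 was lower with the mimic in 3 of 3 pairs, by log2 differences of -0.95, -0.70 and -1.04. PLIN3 was lower in 3 of 3 (-0.26, -0.26 and -0.85) and DGAT2 in 3 of 3 (-0.26, -0.27 and -0.22). For these 3 members the CPM of the groups did not overlap, where 8.78% of genes did not overlap. Any pairing of such libraries gives 3 of 3 lower, so the pairs add nothing to this. DGAT2, with a log2 fold change of -0.26 (standard error 0.18), was not called (unadjusted p = 0.180 in edgeR). Without both replicate 3 libraries PLIN2 was still called (-0.89, unadjusted p = 0.0123 in edgeR), while PLIN3 went to -0.26 and lost its call (unadjusted p = 0.0768 in edgeR). With DESeq2 and shrunken fold changes PLIN2 was called at -0.39 (unadjusted p = 0.00741), and PLIN3 at -0.28 was not (unadjusted p = 0.0590). Leaving out any single library kept PLIN2 between -1.10 and -0.89 and called each time. PLIN3 kept its call without piR-4447944 mimic replicate 2 and lost it without any of the other 5 libraries, with values between -0.56 and -0.31 over all 6. With the replicate number as a block PLIN2 was at -0.99 and PLIN3 at -0.47, both still called, while the number of all genes called rose from 250 to 420.

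**Figure D4:**
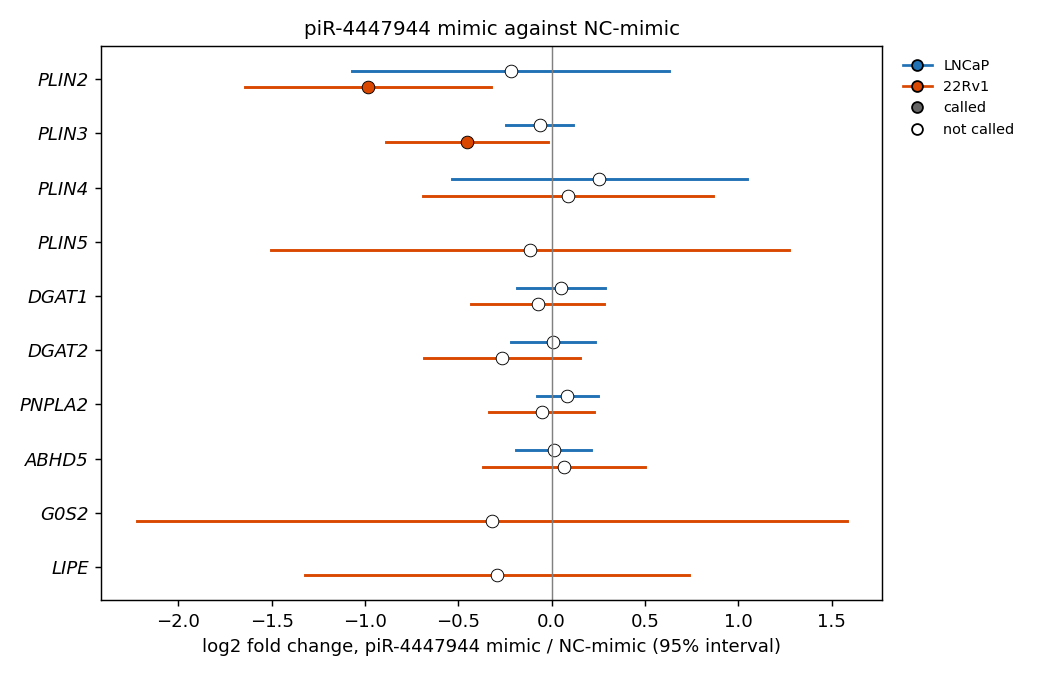
Log2 fold changes of piR-4447944 mimic against NC-mimic (x axis) with 95% intervals from edgeR in LNCaP and 22Rv1; filled points met the rule of unadjusted p and size. Only PLIN2 and PLIN3 in 22Rv1 are filled, and PLIN5, G0S2 and LIPE have no LNCaP point because they were below the low-count filter.

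The scale mattered for PLIN2. In 22Rv1 its TPM were 6.30, 5.36 and 5.98 with NC-mimic and 3.82, 4.02 and 4.20 with the mimic, again without overlap, but the means of 5.88 and 4.01 differ less than those in CPM, 6.98 and 3.54. The effective length that RSEM gave PLIN2 was between 1423 and 1589 bases in the NC-mimic libraries and between 975 and 1325 with the mimic, and a shorter length raises the TPM. On the scale of log2(TPM + 1), which understates the change of low genes, PLIN2 was at -0.45 and missed the rule (unadjusted p = 0.0734 in limma). ABHD5 did not overlap between the 22Rv1 groups by TPM (16.5 to 17.6 with NC-mimic and 17.9 to 20.5 with the mimic), but did by CPM. DGAT1 in LNCaP was at 33.7 ± 4.50 TPM with NC-mimic and 41.2 ± 4.16 with the mimic, which limma called (0.29, unadjusted p = 0.0436), whereas its CPM were 46.2 ± 7.70 and 47.8 ± 1.72.

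LIPE in LNCaP rested on few reads. The counts of 16 and 31 give a ratio of 2.22 (1.18 to 4.34), with an interval that covers counting error alone. The libraries did not overlap by CPM, where 7.86% of the genes past the low-count filter did not overlap. The nearest were NC-mimic and piR-4447944 mimic replicate 3, at 0.548 and 0.580 CPM from 9 and 10 counts. With the low-count filter off, its log2 fold change was 1.09 (standard error 0.70, unadjusted p = 0.117 in edgeR). Without LNCaP NC-mimic replicate 3, which held the highest LIPE of its group, it passed the filter and was called at 1.80 (unadjusted p = 0.0205 in edgeR). In 22Rv1 LIPE was at -0.29 (standard error 0.44) and the groups overlapped.

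Whether the mimic acted differently on the members in the 2 lines was tested over all 12 libraries. None of the 10 members was called in the difference, where 3.26% of 18720 genes were called and 0% after adjustment (0 genes in edgeR, with 610 at an unadjusted p under 0.05). For PLIN2 the log2 difference, 22Rv1 minus LNCaP, was -0.76 (standard error 0.45, 95% interval -1.74 to 0.21, unadjusted p = 0.113 in edgeR). For PLIN3 it was -0.39 (standard error 0.19, interval -0.80 to 0.02, unadjusted p = 0.0610 in edgeR), and for LIPE -1.40 (standard error 0.71, interval -2.93 to 0.14, unadjusted p = 0.0717 in edgeR). The change of PLIN2 in 22Rv1 was thus not shown to differ from that in LNCaP. Without LNCaP NC-mimic replicate 3 the differences of LIPE and DGAT2 were called, at -2.09 and -0.38. LIPE was also called without 22Rv1 NC-mimic replicate 2 or piR-4447944 mimic replicate 1, at -1.64 and -1.73, and PLIN3 without 22Rv1 piR-4447944 mimic replicate 2, at -0.49.

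Other genes moved with the 22Rv1 groups and with its replicate 3 libraries. KLK3 and KLK2, luminal markers that androgen raises, were called lower with piR-4447944 mimic in 22Rv1, at -0.76 and -0.53 (unadjusted p = 0.0287 and 0.0394 in edgeR), and neither was called in LNCaP, at -0.10 and -0.15. Without both replicate 3 libraries KLK3 was at -0.47 and still called, and KLK2 was at -0.40 and not called. Leaving out NC-mimic replicate 2 or 3 or mimic replicate 1 ended the call of either gene, with KLK3 between -0.77 and -0.69, and KLK2 also lost it without mimic replicate 3 (-0.43). KLK3 deviated from the NC-mimic mean of 22Rv1 by -0.75, -0.30 and -1.38 in log2 in replicates 1, 2 and 3 with the mimic. PLIN2 deviated by -0.93, -0.71 and -1.05 in the same libraries. The mean deviation of the low-oxygen list was -0.87, 0.04 and 2.93 there, and HILPDA, a droplet protein that inhibits PNPLA2 and is induced by low oxygen, was at 29.7, 37.9 and 165 CPM. By CPM, PLIN2 was therefore lowest in the library in which HILPDA was highest, at 3.11 against 3.44 in replicate 1, from 48 and 50 counts. By TPM the order differed, with PLIN2 at 3.82, 4.02 and 4.20 in replicates 1, 2 and 3. PLIN2 was also lower in the 2 libraries in which the list lay within or below the range of the NC-mimic libraries, -0.26 to 0.22. PLIN5 was low in both replicate 3 libraries, of which the NC-mimic library had a low-oxygen deviation of 0.22. Without both of them the log2 fold change of PLIN5 was 0.03 in place of -0.11, and that of PLIN4 -0.14 in place of 0.09. The part of KLK3 and of the low-oxygen genes in the values of the members was not tested. In these bulk libraries, fewer cells with a transcript and less of it per cell cannot be told apart.

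**Figure D5:**
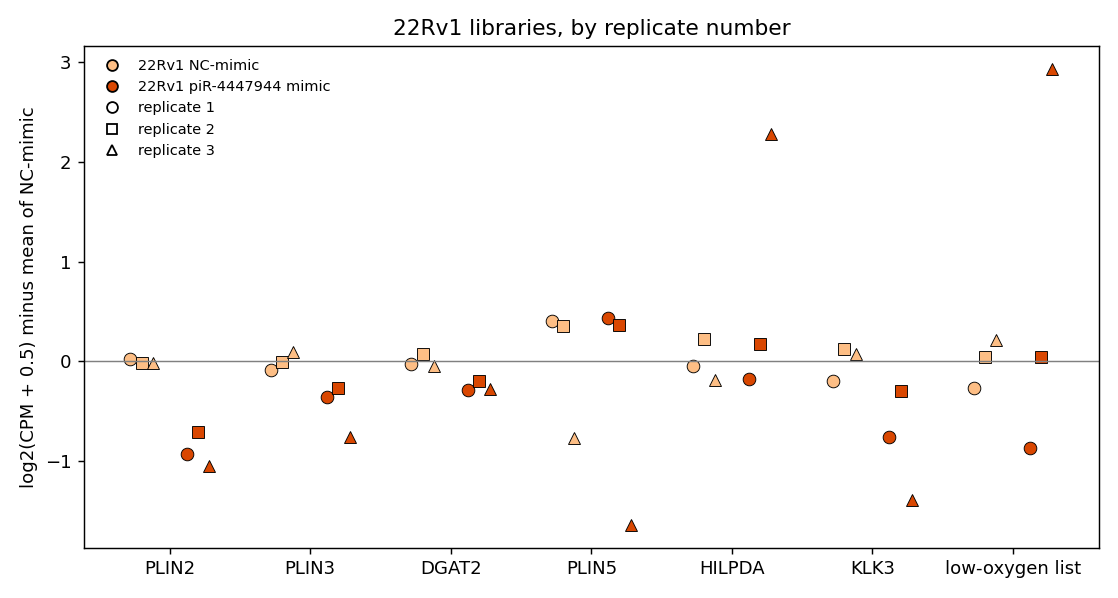
Deviation in log2(CPM + 0.5) of each 22Rv1 library from the average NC-mimic library of that line (y axis), for 6 genes and for the mean of the low-oxygen list, with symbols for the replicate number. PLIN2 lies between -1.05 and -0.71 in all 3 libraries with the mimic, whereas HILPDA and the low-oxygen list are high in replicate 3 alone, at 2.28 and 2.93.

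Around the members, 6 lists of related genes were counted by the same rules. The coat and formation list showed 3 genes higher and 4 lower in 22Rv1 of 8 tested with NC-mimic, or 87.5%, against 58.4% of all genes. HSD17B11, a droplet-bound dehydrogenase, was higher (log2 fold change 2.76) and BSCL2, the seipin that shapes new droplets, was lower (-1.26). With the mimic the same list had 3 higher and 4 lower, against 52.4% of all genes, and 0 genes of it were called for the mimic in either line. PLIN1, the perilipin of fat cells, had 34 and 32 counts in LNCaP and 0 and 7 in 22Rv1. It met the rule in the difference between lines from a 22Rv1 control group at 0 counts, and no difference is read from it.

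Of the other lipases of neutral lipid, 6 of 7 were lower in 22Rv1 with NC-mimic and 0 were higher, and the count was the same with the mimic. Of all genes 27.5% and 24.2% were lower in these comparisons. ABHD6, a monoacylglycerol lipase, was at -1.81 with NC-mimic, and LDAH, a droplet-associated hydrolase, was at 17.1 ± 1.31 TPM in LNCaP and had 4 counts in the 3 22Rv1 libraries together. The median of this list was -1.81 with NC-mimic, against 0.01 over all genes tested. None of its genes was called for the mimic in either line. LDAH met the rule in the difference from those 4 counts against 0 with the mimic, and no difference is read from it.

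In the list of glycerolipid and sterol ester synthesis 6 genes were higher and 5 lower of 18 tested with NC-mimic, and 6 and 6 with piR-4447944 mimic. The shares called, 61.1% and 66.7%, stand against 58.4% and 52.4% of all genes. GPAT2, a mitochondrial acyltransferase, was at 48.1 ± 7.78 TPM in 22Rv1 and 0.0400 ± 0.0400 in LNCaP, and LPIN2, a phosphatidate phosphatase, was lower in 22Rv1 at -1.80. Fatty acid oxidation had 6 genes higher and 4 lower of 18 with NC-mimic and 4 and 4 with the mimic, among them HADHA (0.75), of the trifunctional protein. Its shares of 55.6% and 44.4% were no higher than those of all genes, so neither count is a result about the list. Both lists had 0 genes called for the mimic in LNCaP, in 22Rv1 and in the difference.

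Among PPAR factors and targets, 6 genes were higher and 3 lower of 10 tested with NC-mimic and 5 and 3 of 11 with the mimic, or 90% and 72.7%, against 58.4% and 52.4% of all genes. RXRA, the partner receptor of the PPARs, was lower in 22Rv1 (-3.50). PPARG was at 5.48 ± 0.892 TPM in LNCaP with NC-mimic and 0.117 ± 0.111 in 22Rv1. FABP5, a fatty acid carrier that delivers ligands to PPARs, was at 154 ± 9.03 TPM in 22Rv1 with NC-mimic and at 2 counts in the LNCaP group. With the mimic FABP5 was lower in 22Rv1 (-0.53, standard error 0.21, unadjusted p = 0.0373 in edgeR), at 49.8 ± 3.32 and 34.4 ± 8.42 CPM. The libraries with the mimic held 39.3, 39.3 and 24.7 CPM. Without both replicate 3 libraries FABP5 was at -0.28 and still called (unadjusted p = 0.0315 in edgeR), and without mimic replicate 3 alone it was at -0.34. Leaving out any of the 3 NC-mimic libraries ended the call, with values between -0.58 and -0.48. It was the only gene of the 5 lipid lists called for the mimic in either line. These lists had 8, 18, 4, 18 and 9 genes tested in 22Rv1, where 1.48% of all genes were called. In LNCaP 2.22% of all genes were called. A single call is near these shares and is no result about the lists. FABP5 and PPARG also met the rule in the difference between lines, but from groups with few counts, 2 and 7 of FABP5 in LNCaP and 4 and 0 of PPARG in 22Rv1, so no difference is read from either. FABP5 has near-identical processed copies in the genome, so the division of its reads is uncertain.

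The low-oxygen list had 6 genes higher and 1 lower of 11 in 22Rv1 with NC-mimic, with EGLN3, an oxygen sensor, at -3.13 and HILPDA at 0.98. With the mimic 3 were higher and 0 lower. The shares called were 63.6% and 27.3%, against 58.4% and 52.4% of all genes. For the mimic itself PDK1, a kinase that turns off pyruvate entry into mitochondria, was called in LNCaP (0.22, unadjusted p = 0.0422 in edgeR), a call that was lost without any 1 of 5 of the 6 LNCaP libraries (0.18 to 0.25) and kept without NC-mimic replicate 2 (0.32). In 22Rv1 the median of the 11 genes tested was 1.44 and 0 were called, with the rise in replicate 3 alone.

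The genes most like PLIN2 across the 12 libraries were sought by the mean absolute difference of their log2 deviations from the NC-mimic mean of the line. The 5 nearest were CEP76 at 0.131, AP000593.4 at 0.171, CAP2 at 0.172, ZNF284 at 0.176 and AC018809.2 at 0.179, where the median over 18719 genes was 0.411. CEP76, for example, was at 15.6 ± 2.40 and 13.8 ± 1.41 CPM in LNCaP and at 12.9 ± 0.427 and 8.51 ± 1.76 CPM in 22Rv1. PLIN3 was at rank 89, with a difference of 0.237. The other members ranked from 3278 for DGAT2 to 17352 for PLIN4. PLIN4, PLIN5 and LIPE, at 0.648, 0.551 and 0.563, were farther from PLIN2 than the median gene. The 12 points of such a comparison share 2 lines, and the rank is a description of these libraries.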

How the data were processed

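The mRNA of 12 libraries was measured, 3 in each of 4 groups taken from the labels. Per the study's methods and the submitters' processing notes, reads were aligned to hg38 with STAR 2.7.1a and quantified with RSEM 1.3.0, and the study then used DESeq2 1.34.0 in R 4.1.1. Trimming, strand and the annotation release are not given in the sources used here. The expected counts deposited by the authors are estimated reads per gene without normalization, and RSEM divides a read that matches several genes between them. The TPM deposited by the authors are scaled by effective length and hold no depth.

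Expected counts were rounded, and the tests were run with edgeR 4.0.16 under R 4.3.3 (TMM, filterByExpr, glmQLFit, glmQLFTest) for 5 comparisons over all genes, each with the libraries of its own groups. Adjusted p-values are Benjamini-Hochberg values over all genes of a comparison. The rule for the mimic takes the limits of the study, which were set there on DESeq2 fold changes shrunken with lfcShrink, and applies them to edgeR fold changes without shrinkage. The line comparisons used an adjusted p under 0.05. Alternatives used DESeq2 1.42.0 and limma 3.58.1, the latter on log2(TPM + 1) where 3 libraries or more reached a TPM of 1. The edgeR fits were also run on simulated counts, drawn independently for each library. Such counts do not test deviations that libraries of the same replicate number share. Gene positions come from GENCODE 44 and promoters from RefSeq.

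The members and the lists were chosen with earlier results of these data known. The named genes are the members, at most 2 called genes of each list and comparison with the smallest p, and the 5 genes most like PLIN2. Some of the genes that overlap a member are named as well. PLIN1, PPARG, KLK3 and KLK2 are named beyond this rule, after their values were seen. Some genes of the lists are not reported here. The alternatives for FABP5, KLK3, KLK2 and PDK1, and the shares of TPM with a library left out, were chosen after seeing the data.

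Deviations from the group means of libraries with the same replicate number correlated at 0.198, 0.167 and 0.355 in 22Rv1. On that ground alone the 22Rv1 libraries were set side by side by number. The main tests were unpaired in both lines, and the replicate number entered a fit only in the alternative with a block. In LNCaP the correlations were 0.0211, 0.00504 and 0.189, and the numbers were not taken to pair the libraries.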

Additional observations from a re-analysis of the deposited data

How the results depend on the processing

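The line comparisons were stable: with NC-mimic 7 or 8 members and with piR-4447944 mimic 6 to 8 were called under every alternative run. For the mimic in LNCaP, the number of genes called went from 361 to 891 without the low-count filter, 168 with all 12 libraries in one fit, 2 with DESeq2 and shrunken fold changes and 578 with limma on log2(TPM + 1), and from 284 to 1008 with each library left out (1008 without NC-mimic replicate 3). Members called there went from 0 to 1 with limma, and from 0 to 1 with each library left out. In 22Rv1 the 250 genes became 532 without the filter, 420 with the replicate block, 1232 in one fit, 459 with limma, 781 without both replicate 3 libraries (chosen after seeing the data) and 183 to 376 with each library left out (376 without piR-4447944 mimic replicate 3). The 2 members became 1 with DESeq2, 0 with limma, 1 without both replicate 3 libraries and 1 to 2 with each library left out. The 610 genes of the difference became 1035 without the filter, 1182 without both replicate 3 libraries and 407 to 1041 with each library left out (1041, 965 and 920 without 22Rv1 piR-4447944 mimic replicate 1, 2 and 3), and its 0 members became 1 with the replicate block (PLIN5, from an LNCaP group at 0 counts) and 0 to 2 with each library left out. The block changed no other call of a member. The cause of these moves was not tested.

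Values that turned sign were all of members not called. ABHD5 in LNCaP was at -0.036 with limma and between -0.062 and 0.062 with a library left out, DGAT1 between -0.019 and 0.20, and DGAT2 between -0.063 and 0.13. In 22Rv1 without both replicate 3 libraries PLIN4 was at -0.14 and PLIN5 at 0.025, and DGAT1 was at 0.14 with limma. With each library left out in 22Rv1, PLIN4 ranged from -0.19 to 0.42, PLIN5 from -0.43 to 0.32, DGAT1 from -0.16 to 0.023, PNPLA2 from -0.11 to 0.018, LIPE from -0.65 to 0.071, ABHD5 from -0.090 to 0.20 and G0S2 from -0.80 to 0.16. In the difference PLIN4 was at 0.069 with limma and between -0.62 and 0.17 with a library left out, and ABHD5 between -0.084 and 0.18. PLIN2 had 55 to 74 counts per group in LNCaP, and its 95% interval there, -1.07 to 0.63, holds the change fitted in 22Rv1, -0.98.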
